A study of Mus musculus with 10 samples.

Results

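Gene-desert sites were the accessible sites of Th17 cells that lay more than 50 kb from every protein-coding gene. They were taken by position from a deposited ATAC-seq table of 39657 sites: a site counted when it lay on a nuclear chromosome and no GRCm38 protein-coding gene body came within 50 kb. The rule gave 3207 sites, 8.09% of the table. The other sites comprised 36442 on placed nuclear chromosomes, 2 on mitochondrial DNA and 6 on unplaced contigs, where the rule could not be applied. No signal value entered the rule. The member closest to the limit lay 50.048 kb from a gene, and the closest site outside it 49.978 kb.

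ATAC-seq, here in its Omni-ATAC form, reads where a transposase can cut into chromatin. Naive CD4+ T cells were taken from spleen and lymph nodes of PDH fl/fl CD4-Cre mice (KO), in which a Cre driven by Cd4 regulatory sequence removes floxed pyruvate dehydrogenase in T cells, or of PDH fl/fl mice without Cre (WT). They were cultured for 3 days with plate-bound anti-CD3, anti-CD28, IL-6, TGFβ and anti-IFNγ, with or without 10 mM sodium acetate. There were 2 KO and 2 WT libraries with acetate, and 3 KO and 3 WT untreated libraries. Both genotypes carry the floxed alleles, and every KO library but no WT library carries the Cre transgene, so effects of the transgene and of the deletion cannot be told apart. The labels do not tie replicates to separate animals, and the p-values measure only the spread between these libraries, which may be technical.

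Gene deserts are long stretches of the genome without protein-coding genes. Many of them flank regulators of development or of immune cells, and open chromatin inside them often marks enhancers that act over long distances, or the starts of long non-coding RNAs (lncRNAs). In mouse blood cells, for example, enhancers that drive Myc lie far out in the desert beyond that gene. A desert is called here by its pair of flanking protein-coding genes. The nearer flank is given as a position only, since a site is not known to act on it.

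Few desert sites coincided with an annotated transcript start. RefSeq windows of 300 bases, from 250 before to 50 after a gene's start, overlapped 67 of the 3207 sites, with 70 windows in all, and these are the only desert sites whose sequence was at hand. Printed below are 6 of the kept windows, of lncRNA or predicted non-coding genes. Among the kept start sites they are the pair that rose most and the pair that fell most in untreated KO cells. The others are the kept start site of highest signal (LOC115487176) and the start inside the desert where a genotype difference was called under acetate (Gm38326). Capitals mark the bases inside the ATAC-seq site. Coordinates are GRCm38 (RefSeq table of GRCm38.p6), and each sequence reads 5′ to 3′ on the gene's strand. Gm33073 is at chr13:83120488-83120787 (minus strand), Gm34799 at chr17:9929772-9930071 (minus), Gm38326 at chr3:60788111-60788410 (plus), LOC115487176 at chr9:61013180-61013479 (plus), 4933411E08Rik at chr10:117925209-117925508 (plus) and Gm19585 at chr17:52149039-52149338 (plus).
Gm33073: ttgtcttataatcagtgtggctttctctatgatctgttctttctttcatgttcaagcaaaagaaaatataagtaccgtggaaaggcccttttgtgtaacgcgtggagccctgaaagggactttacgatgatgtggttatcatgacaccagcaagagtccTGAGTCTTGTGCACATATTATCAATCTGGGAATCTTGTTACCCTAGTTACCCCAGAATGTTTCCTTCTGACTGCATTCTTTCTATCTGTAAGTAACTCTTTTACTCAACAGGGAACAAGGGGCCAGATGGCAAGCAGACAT
Gm34799: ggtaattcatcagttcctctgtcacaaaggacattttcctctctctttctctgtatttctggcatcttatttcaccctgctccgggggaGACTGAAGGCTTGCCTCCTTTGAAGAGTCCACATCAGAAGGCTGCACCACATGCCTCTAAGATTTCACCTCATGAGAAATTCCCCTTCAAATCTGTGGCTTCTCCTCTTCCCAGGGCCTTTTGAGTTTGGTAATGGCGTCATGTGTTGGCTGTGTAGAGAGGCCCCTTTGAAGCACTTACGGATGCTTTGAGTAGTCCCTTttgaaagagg
Gm38326: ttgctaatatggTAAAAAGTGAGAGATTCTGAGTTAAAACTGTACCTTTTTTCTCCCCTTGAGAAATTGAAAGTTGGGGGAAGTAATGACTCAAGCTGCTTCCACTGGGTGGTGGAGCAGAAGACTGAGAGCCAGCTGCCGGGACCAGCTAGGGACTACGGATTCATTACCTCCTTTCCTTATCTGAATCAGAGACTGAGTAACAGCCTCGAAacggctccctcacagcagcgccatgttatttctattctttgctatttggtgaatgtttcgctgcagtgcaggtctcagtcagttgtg
LOC115487176: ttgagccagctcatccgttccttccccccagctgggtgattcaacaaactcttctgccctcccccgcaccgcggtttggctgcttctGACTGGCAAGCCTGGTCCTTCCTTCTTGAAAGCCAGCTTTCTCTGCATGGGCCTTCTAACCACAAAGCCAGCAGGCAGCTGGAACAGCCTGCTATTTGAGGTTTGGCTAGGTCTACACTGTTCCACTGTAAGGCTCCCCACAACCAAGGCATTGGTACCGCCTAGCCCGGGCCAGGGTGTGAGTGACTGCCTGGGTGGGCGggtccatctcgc
4933411E08Rik: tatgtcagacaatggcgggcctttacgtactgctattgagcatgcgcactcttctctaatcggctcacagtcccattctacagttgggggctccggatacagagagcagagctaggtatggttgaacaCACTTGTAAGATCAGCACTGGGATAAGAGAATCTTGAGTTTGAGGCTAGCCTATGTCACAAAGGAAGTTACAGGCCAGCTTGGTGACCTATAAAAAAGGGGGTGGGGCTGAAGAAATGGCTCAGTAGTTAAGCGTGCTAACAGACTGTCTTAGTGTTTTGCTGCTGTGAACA
Gm19585: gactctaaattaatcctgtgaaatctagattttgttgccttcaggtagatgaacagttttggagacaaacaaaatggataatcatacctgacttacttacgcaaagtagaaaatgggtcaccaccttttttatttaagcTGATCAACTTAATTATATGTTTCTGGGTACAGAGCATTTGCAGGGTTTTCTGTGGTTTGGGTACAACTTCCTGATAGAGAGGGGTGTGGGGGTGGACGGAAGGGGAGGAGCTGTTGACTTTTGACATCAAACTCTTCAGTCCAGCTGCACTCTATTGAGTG

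Motifs were searched on both strands of these windows as plain letters. The AP-1 motif TGANTCA, bound by Jun, Fos and BATF proteins, was in 15 of the 70 windows at desert sites (21.4%), against 7.81% of all 32851 RefSeq start windows. The RUNX motif TGTGGT was in 20 (28.6%), against 16.8% of all windows. The ETS motif CGGAAG was in 8 (11.4%), against 16.9%, and the nuclear receptor motif AGGTCA in 13 (18.6%), against 16.3%. Among the printed windows Gm38326 held the AP-1 motif at positions 87 and 185, counted from the 5′ end, and LOC115487176 at position 37. The RUNX motif stood at position 131 in Gm33073 and 190 in Gm19585, and on the opposite strand at 135 in Gm34799 and 146 in LOC115487176. The ETS motif stood at 236 in Gm19585, and the nuclear receptor motif on the opposite strand at 212 in 4933411E08Rik. Positions 37 in LOC115487176 and 131 in Gm33073 lie in lower case, outside the ATAC-seq site. None of the 4 motifs contains another. These are matches of letters, not bound sites, and the difference from all windows was not tested. The 70 windows each overlap an accessible site, while all windows were counted whether or not a site overlapped them, chromosome 18 included. Accessibility and desert position therefore cannot be told apart in this comparison.

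Signal is given as the authors deposited it, which is the reads of a site over a scaling factor of its library. How they made that factor is not stated in the labels. The libraries held between 3500172 and 13356560 reads in sites, both extremes being WT libraries with acetate. The sites of the table are numbered as differential sites and are taken as chosen on these samples, so counts for untreated KO against WT are not independent evidence of a difference. Pdha1, a gene for part of the enzyme's catalytic core and presumably the floxed one, had a single site (chrX:160136288-160136488), which does not test for the deletion. Its signal was 55.4, 43.9 and 68.6 in untreated KO libraries, against 119.9, 89.4 and 113 in untreated WT libraries. This log2 difference of -0.94 lay near the median of all sites, -0.84. With acetate the Pdha1 site had 75.9 and 54.3 in KO, against 52.3 and 66.7 in WT, and was not called (limma adjusted p = 0.993). T cell markers (Cd3e, Cd3g, Cd247, Cd4) and Th17 markers (Rora, Il17a, Il17f, Il23r, Ccr6) all had sites in the table. Of the B cell markers Cd79a, Cd79b and Ms4a1 had none, but Pax5 had 4 sites. Of the CD8 T cell markers Cd8a and Cd8b1 had none, but Eomes had 4. Sites also lay at 2 of 5 myeloid markers (5 sites) and at 3 of 4 NK and innate lymphoid markers (11 sites). Column names start with ATAC1 for all untreated KO libraries and for untreated WT 1 and 2, and with ATAC2 for untreated WT 4 and all acetate libraries. In KO, acetate and this prefix cannot be told apart.

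The desert sites lay a median of 106 kb from a protein-coding gene. There were 1485 at 50 to 100 kb, 1254 at 100 to 250 kb, 375 at 250 to 500 kb and 93 beyond 500 kb, the farthest at 1412 kb. In all, 3173 (98.9%) had the table's usual width of 201 bp. Of the members 954 (29.7%) lay inside a non-coding gene and 2253 outside any gene, and 574 had no gene of any type within 50 kb. Their share of a chromosome's sites ran from 2.42% on chromosome 11 and 3.20% on 19 to 15.97% on chromosome 13.

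Desert sites carried less signal than sites near genes, and the more remote ones carried least. The median of the mean signal over the 10 libraries was 97.5 at desert sites and 152 at other nuclear sites. Among the others it was 123 at intergenic sites within 50 kb, 118 inside gene bodies and 309 within 1 kb of a gene end. By distance it was 107, 93.5, 81.5 and 59.97 from the nearest to the farthest of the 4 classes. At the starts of non-coding genes it was 188. The strongest member lay 62.1 kb from Glrp1 at chr1:88587444-88587644, with 985 ± 89.7 in untreated KO and 1434 ± 136 in untreated WT (SD, n = 3 each). Next came sites near Cd47, the don't-eat-me signal of the cell surface (846 ± 81.0 in untreated KO and 1265 ± 43.5 in untreated WT), and Hif1a, the hypoxia-inducible transcription factor (724 ± 66.8 and 1266 ± 118 in the same order).

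The first question was whether deserts take a different part of the open chromatin signal when pyruvate dehydrogenase is missing or acetate is given. As a share of all nuclear site signal, which a factor per library cannot change, desert sites held 5.93 and 5.70% in KO with acetate and 5.55 and 6.23% in WT with acetate. They held 6.02, 6.05 and 6.20% in untreated KO, against 5.74, 6.17 and 5.02% in untreated WT. The groups overlapped in each genotype comparison. Untreated KO exceeded untreated WT by 0.448 percentage points (exact permutation p = 0.3, two-sided, where 3 against 3 libraries cannot go below 0.1). With acetate KO was lower than WT by 0.0753 points (difference -0.0753, exact permutation p = 1, smallest possible 0.333). Acetate against untreated gave -0.273 points in KO (exact permutation p = 0.1, the smallest possible) and 0.251 in WT (exact permutation p = 0.6). Over both treatments KO minus WT was 0.187 points (exact permutation p = 0.45, smallest possible 0.0167), and acetate minus untreated over both genotypes was -0.0111 (exact permutation p = 0.96). None passed after Benjamini-Hochberg adjustment over the 6 tests (0.6 to 1).

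The desert sites of lowest mean signal took a larger share in untreated KO than in any other library. The 1002 members in the lowest quintile of mean signal over all nuclear sites held 0.500 to 0.510% of nuclear signal in KO with acetate and 0.443 to 0.525% in WT with acetate. They held 0.651 to 0.715% in untreated KO, against 0.361 to 0.483% in untreated WT. The 3 untreated KO libraries were above all other 7 libraries. This quintile was looked at after its values were known and was not tested. A site high only in untreated KO can have a low mean over all libraries, so the quintile partly selects for this pattern. The 93 sites beyond 500 kb held 0.132 to 0.140% in untreated KO and 0.0701 to 0.106% in the other 7 libraries, also without overlap. Mitochondrial DNA moved the same way: its share of site signal was 1.18 to 2.01% in untreated KO and 0.201 to 0.658% in the other 7 libraries. So did the 9 sites at the gamma-delta T cell markers Sox13, Blk, Cd163l1 and Sox4, all 4 of which had sites. Blk is also in the list of B cell and myeloid genes used below, and only the sum over the 4 genes is given. With acetate the summed share of these 9 sites was 0.00829 to 0.00873% in KO and 0.00667 to 0.00870% in WT. Untreated it was 0.0122 to 0.0130% in KO, against 0.00862 to 0.00954% in WT. The part of either in the result was not tested.

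**Figure D1:**
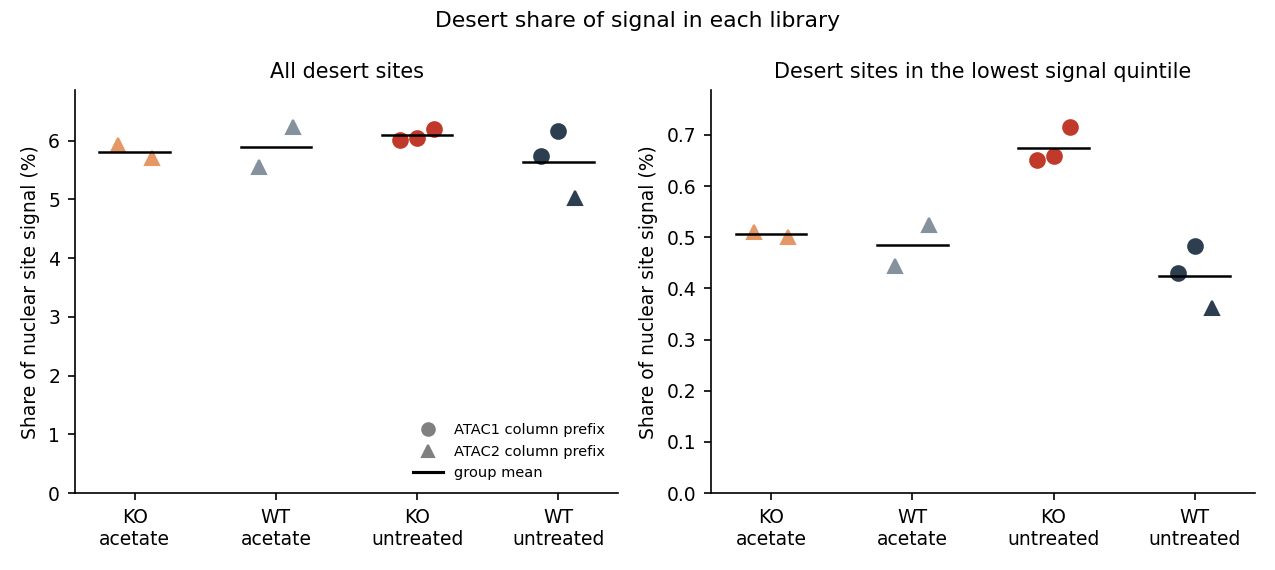
Share of nuclear site signal (%) held by all 3207 desert sites (left) and by the 1002 in the lowest signal quintile (right), 1 point per library, with the column-name prefix as the symbol and a line at the group mean. The groups overlap on the left (5.02 to 6.23% over all libraries), while on the right the 3 untreated KO libraries (0.651 to 0.715%) stand above the other 7.

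In untreated cells most desert sites had lower signal in KO than in WT, as nearly the whole table did, but 22.2% were higher. With limma and an adjusted p under 0.05 over all sites, 713 of the 3207 members were called higher and 2452 lower, and 42 were not called. Of all 39657 sites 9.07% were called higher and 89.6% lower. The median log2 difference was -0.82 at desert sites and -0.84 over all sites. That shift depended on the scaling: after cyclic loess, which sets the median of all sites near 0, 727 members (22.7%) were higher and 115 (3.59%) lower, against 9.35% and 2.41% of all sites. All 713 members with a higher call on the deposited scale kept it after loess, and 115 of the 2452 lower ones (4.69%) were also called lower. Loess moved the median over all sites up from -0.84 to near 0, so a higher call could hardly be lost. Within the ATAC1 libraries alone 694 were higher and 2427 lower. Rises were called on both scales, which the upward move favours, and most falls on the deposited scale only.

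The sites called higher had a low mean signal over the 10 libraries (median 52.0, against 97.5 at all desert sites). Most of those libraries are not untreated KO, so a site high only there can fall in a low quintile. At the sites called higher the median signal was 78.7 in untreated KO, where all desert sites had 75.4. It was 33.2 in untreated WT, with 49.3 in KO and 43.0 in WT with acetate. For the sites called lower it was 73.3 in untreated KO and 142 in untreated WT, with 129 in KO and 147 in WT with acetate. In each signal quintile a larger part of desert sites than of other nuclear sites was called higher: 42.5% against 24.2% in the lowest quintile, then 22.7% against 8.87%, 11.9% against 5.51%, 7.48% against 1.92%, and 1.75% against 0.316% in the highest. Whether these shares differ beyond the spread between libraries was not tested, since the sites are not replicates. The other nuclear sites include 9825 within 1 kb of a gene end, few of which were called higher, as given below. Shares by quintile for intergenic sites within 50 kb alone are not given here.

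**Figure D2:**
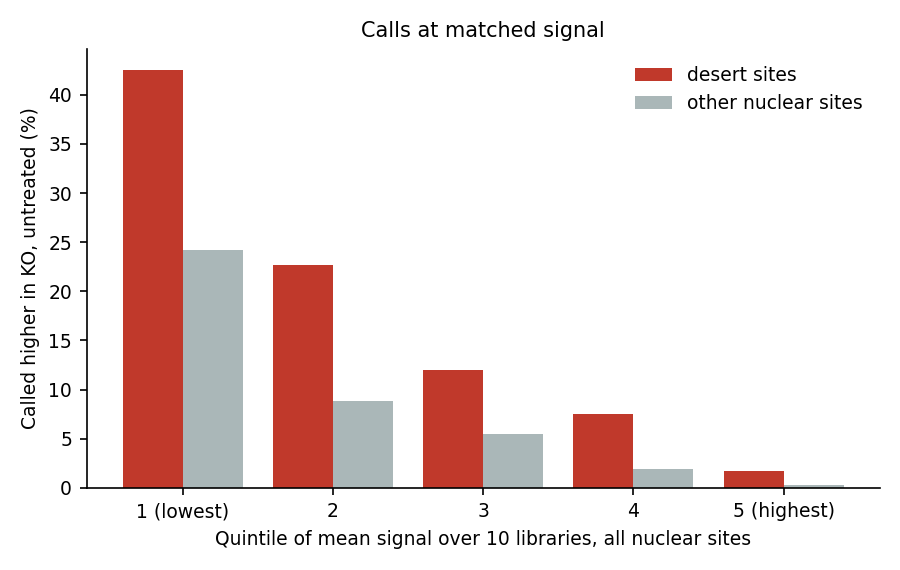
Percent of desert sites (left bar of each pair) and of other nuclear sites (right bar) called higher in untreated KO than in untreated WT (limma on the deposited scale), by quintile of mean signal over the 10 libraries. The percentage falls from 42.5 to 1.75 across the quintiles at desert sites and from 24.2 to 0.316 at the others, which include gene ends.

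Rises were more frequent the farther a site lay from genes. Called higher in untreated KO were 18.1% of members at 50 to 100 kb, 23.2% at 100 to 250 kb, 29.6% at 250 to 500 kb and 45.2% (42 of 93) beyond 500 kb. The share called lower was 81.0, 75.5, 68.0 and 50.5% in the same classes. Nearer to genes the share called higher was 9.32% between 1 and 50 kb, 10.8% inside gene bodies and 1.50% at gene ends. After loess it was 18.5, 23.5, 30.4 and 46.2% in the 4 desert classes. There was no step at the limit of the rule: 79 of 453 members at 50 to 60 kb (17.4%) and 85 of 613 sites at 40 to 50 kb (13.9%) were called higher. The more remote classes are also the weaker ones, by the medians given above, and the part of signal level in the order by distance was not tested.

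**Figure D3:**
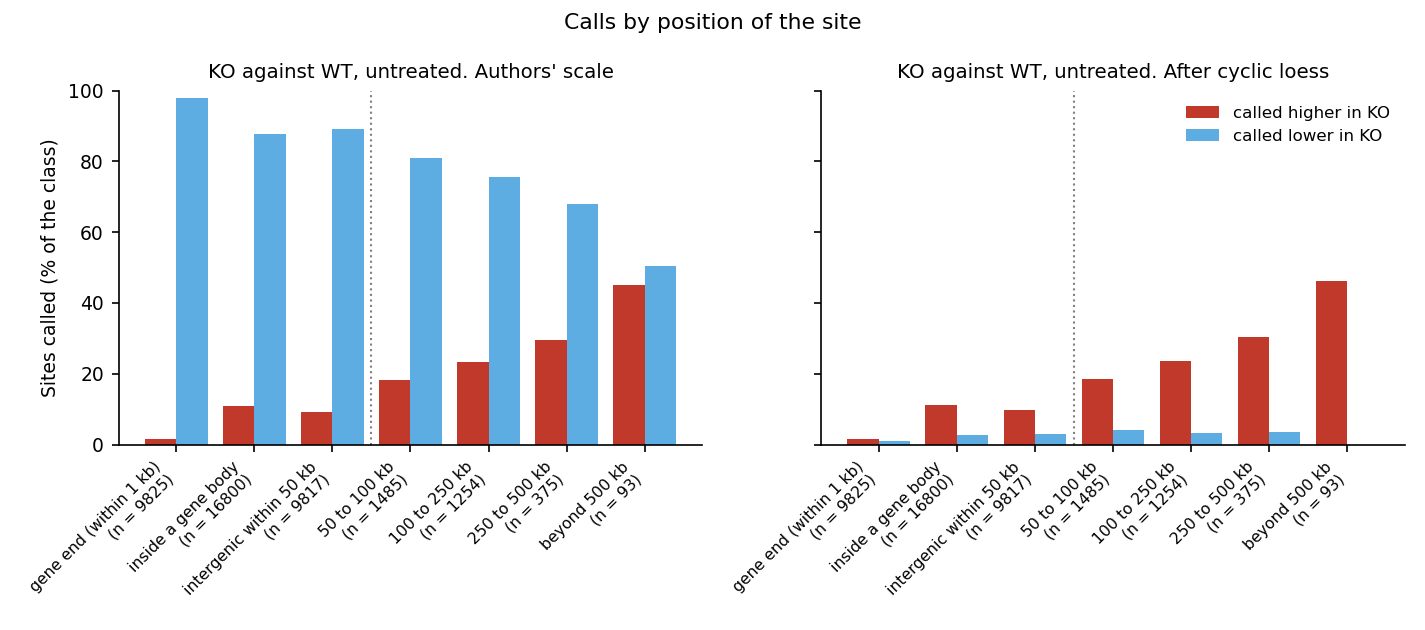
Percent of sites called higher (red) and lower (blue) in untreated KO than in untreated WT by position, on the authors' scale (left) and after cyclic loess (right); classes right of the dotted line are desert sites. The red bars grow from 18.1 to 45.2% over the 4 desert classes on the authors' scale and from 18.5 to 46.2% after loess, while the blue bars nearly vanish after loess.

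The 3207 members lay in 774 deserts, of which 282 held 1 site and 69 held 10 or more. Within these 69 the SD of the log2 difference after loess had a median of 0.416, against 0.985 over all members, those of small deserts included. Of the 69, 35 held no site called higher as deposited. Of the 266 deserts with 4 or more sites, 13 were called higher at every site, 121 lower at every site, and 126 held calls in both directions. The 13 were small, with at most 7 sites each and 62 in all. The 69 large deserts held 1276 sites (39.8%), of which 104 (8.15%) were higher, while 609 of the 1931 sites of the other deserts (31.5%) were. Median signal was 114 in the large deserts and 89.0 in the others.

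In the 10 deserts with the most sites, most sites were called lower, as in the whole table. The desert between Satb1, a chromatin organiser needed for T cell development, and Kcnh8 held 52 sites over a gap of 769 kb, of which 2 were higher and 47 lower. Between Foxo1, a transcription factor of naive T cells, and Cog6 all but 1 of 42 sites were lower. All 36 sites between Bcl2l11, which encodes the pro-apoptotic protein Bim, and Spdye4c were lower, as were all 34 between Saraf and Dusp4, a MAP kinase phosphatase, and all 30 between Klf14 and Mkln1. The desert from Ccdc54 to Cblb, a ubiquitin ligase that restrains T cell receptor signals, had 1 higher and 33 lower sites of 34. Between Id2, an inhibitor of E proteins, and Rnf144a 2 sites were higher and 34 lower. Between Trib2 and Lpin1 it was 2 and 37, and between Cd83 and Jarid2 5 and 28. With the Myc desert these are the 10 with the most sites. Their medians ran from -0.74 to -1.02, around that of all sites, and after loess they held 0 to 9 higher and 0 to 5 lower sites each.

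One of the steepest falls, and the start of the lncRNA Gm19585 whose sequence is given above, lay in the Satb1 desert. At chr17:52156653-52156853, inside Gm19585 and 323 kb from Satb1, signal was 31.3, 29.0 and 34.3 in untreated KO, against 202, 141 and 121 in untreated WT. Every KO value was below every WT value, but the largest falls and rises were named only where groups did not overlap. The log2 difference was -2.23 ± 0.23 (SE; limma adjusted p = 1.25e-14). After loess it was -1.35 (limma adjusted p = 9.64e-06). At the start of Gm19585 (chr17:52149178-52149378) signal was 89.4, 120.5 and 128 in untreated KO, against 407, 344 and 302 in untreated WT, again without overlap. The log2 difference was -1.64 ± 0.21 (limma adjusted p = 2.01e-10), and -0.81 after loess (limma adjusted p = 0.00119). Not all of the desert fell so far: its strongest site, at chr17:52162735-52162935, had 567 ± 120 in untreated KO and 1025 ± 115 in untreated WT (SD, n = 3 each), a log2 difference of -0.87.

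Other deserts held falls beyond the table's shift. Between Smim20 and Rbpj, which encodes the DNA-binding partner of Notch, the site at chr5:53437028-53437228 had 34.5, 49.5 and 42.6 in untreated KO, against 162, 138 and 154 in untreated WT. The log2 difference was -1.83 ± 0.22 (limma adjusted p = 2.03e-11), and -0.97 after loess (limma adjusted p = 0.00029). Groups without overlap were a condition for naming the largest falls. Of the members at or above the median signal, 1 per desert, the 10 largest falls included sites near Slc17a6 (28.4 ± 8.85 in untreated KO and 128 ± 23.1 in untreated WT), Rplp1 (64.4 ± 8.48 and 241 ± 44.4), Rgs3 (37.9 ± 8.45 and 142 ± 42.8), Rreb1 (70.6 ± 17.0 and 247 ± 116) and Sipa1l1 (30.6 ± 5.15 and 98.5 ± 14.3), in the same order. In the desert beside Il12a, which encodes a subunit of interleukins 12 and 35, a site 85.4 kb from its nearer flank 1110032F04Rik had 87.5 ± 18.5 in untreated KO and 301 ± 57.8 in untreated WT. Falls at T cell receptor regulators included a Cblb site (128 ± 27.4 in untreated KO and 374 ± 78.4 in untreated WT), an Icos site (113 ± 13.9 and 296 ± 48.4) and a Tnfaip3 site (43.1 ± 8.38 and 131 ± 41.5). Icos is a co-stimulatory receptor and Tnfaip3 an inhibitor of NF-κB signals. At Cxcr4, the chemokine receptor for CXCL12, a site had 132 ± 32.8 in untreated KO and 328 ± 38.7 in untreated WT (n = 3 each throughout). All of these were called lower by limma as deposited, with log2 differences of -1.32 to -2.17. After loess the Tnfaip3 site was not called (limma adjusted p = 0.0711) and the others were.

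The Myc desert held both directions. Of the 40 sites between Myc, the growth-promoting transcription factor, and Gsdmc, 9 were higher and 31 lower in untreated KO, and after loess 9 and 0. At chr15:62622398-62622598, 632 kb from Myc, signal was 418, 396 and 531 in untreated KO, against 248, 247 and 154 in untreated WT. All KO values were above all WT values, with a log2 difference of 1.07 ± 0.22 (limma adjusted p = 1.32e-05; 1.91 after loess). The desert's strongest site, at chr15:62393400-62393600, rose as well, with 682 ± 102 in untreated KO and 437 ± 57.4 in untreated WT. Inside Pvt1, the lncRNA next to Myc, all 14 desert sites were lower as deposited and none was called after loess.

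Several of the steepest rises lay in small deserts. The steepest one described here was at the start of Gm33073, a non-coding gene between Cetn3 and Mef2c, a transcription factor of muscle, neurons and B cells. At this site (chr13:83120428-83120628, 383 kb from Mef2c) signal was 106, 210.2 and 241 in untreated KO, against 22.5, 25.1 and 16.6 in untreated WT. The untreated KO libraries did not overlap with untreated WT, and the log2 difference was 3.00 ± 0.29 (limma adjusted p = 1.16e-16). All 5 sites of that desert were called higher, with a median of 1.56. At the start of Gm34799 (chr17:9929782-9929982) signal was 30.2, 64.4 and 76.9 in untreated KO, against 9.99, 19.1 and 8.85 in untreated WT, a log2 difference of 2.06 ± 0.42 (limma adjusted p = 1.87e-05). The WT values there rest on 8, 19 and 8 reads. Taken over all 67 start sites, 8 were higher and 58 lower, so the printed rises are exceptions among the starts. The other falling start printed, 4933411E08Rik between Rap1b and Mdm1, had 13.7, 25.2 and 21.3 in untreated KO, against 73.7, 80.4 and 39.8 in untreated WT (log2 difference -1.62 ± 0.31, limma adjusted p = 6.16e-06). After loess it was not called (limma adjusted p = 0.148). The strongest start printed, LOC115487176 between Uaca and Tle3, had 691, 941 and 888 in untreated KO, against 1232, 1159 and 1098 in untreated WT. The log2 difference was -0.48 ± 0.17 (limma adjusted p = 0.00609). It was not called after loess (0.13, limma adjusted p = 0.62).

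**Figure D4:**
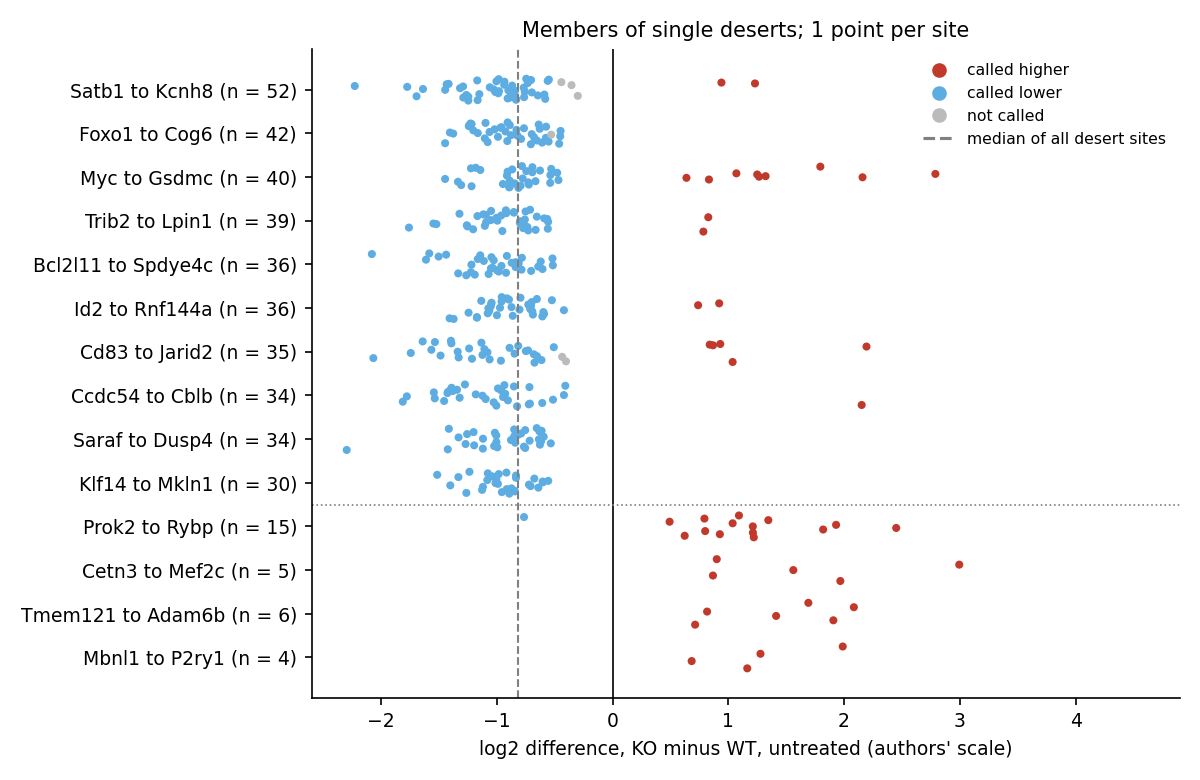
Log2 difference of untreated KO minus untreated WT at every member of the 10 largest deserts (above the dotted line) and of 4 deserts picked for their rises (below it), on the authors' scale, coloured by limma call, with the median of all desert sites (-0.82) as the dashed line. Points of the large deserts lie mostly left of 0, those of the Satb1 desert down to -2.23, while nearly all points of the 4 lower deserts lie right of 0, up to 3.00 in the Mef2c desert.

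A run of higher sites filled the desert between Prok2 and Rybp on chromosome 6, which was picked for this pattern. Of its 15 sites 14 were higher and 1 lower, with a median log2 difference of 1.09. Its steepest site, at chr6:99983344-99983544, had 98.7, 191 and 134 in untreated KO, against 30.0, 21.1 and 22.1 in untreated WT, a log2 difference of 2.45 ± 0.32 (limma adjusted p = 3.11e-10). All KO libraries stood above all WT libraries there.

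The 10 largest rises among members at or above the median signal, 1 per desert, were led by a site 384 kb from Mn1, a transcriptional coregulator, at chr5:111840967-111841167. It had 235, 303 and 339 in untreated KO, against 119, 77.4 and 47.5 in untreated WT. The log2 difference was 1.91 ± 0.23 (limma adjusted p = 4.96e-11), and only sites whose groups did not overlap could enter this list. The list also held sites near Spata18 (246 ± 42.9 in untreated KO and 78.3 ± 17.4 in untreated WT), Tmem174 (265 ± 35.0 and 87.1 ± 18.6), Klf4, a pluripotency factor (239 ± 64.4 and 85.8 ± 17.7), and Sox9, a regulator of cartilage and gut (225 ± 21.1 and 85.5 ± 13.1), in the same order. Below the median signal, a site 193 kb from Sox6, a transcription factor of muscle, cartilage and red cells, had 99.8, 140.1 and 190.4 in untreated KO, against 22.5, 20.1 and 34.3 in untreated WT (log2 difference 2.43 ± 0.31, limma adjusted p = 7.35e-11). The farthest member of all, 1412 kb from Epha7, an ephrin receptor, had 31.3, 45.8 and 42.6 in untreated KO, against 11.2, 8.04 and 23.2 in untreated WT (log2 difference 1.54 ± 0.37, limma adjusted p = 0.000136).

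Desert sites were also counted by lists of genes, through the nearest flank. Of 66 T cell transcription factors 29 were the nearest gene of a desert site, with 292 sites, of which 35 (12.0%) were higher and 255 lower in untreated KO. Ets1 with 27 sites, Foxo1 with 19 and Bcl6 with 14 had no higher site, while Myc had 10 of 40, Gata3 4 of 17, Klf6 4 of 22 and Nr4a3 3 of 3. Of the T cell receptor signals and co-receptors, 20 of 53 genes had 129 sites, with 6 higher and 122 lower. All 31 sites nearest to Cblb, 20 nearest to Dusp4 and 11 nearest to Tnfaip3 were lower, whereas 4 of 7 at Ptprc, the CD45 phosphatase, were higher. Cytokines and their receptors had 33 sites at 5 of 37 genes, with 0 higher and 31 lower, among them 11 of 12 at Cxcr4 and all 10 at Ifngr1. These counts stand beside 22.2% higher and 76.5% lower over all desert sites, and 9.07% and 89.6% over all sites. After loess they were 35 higher and 10 lower, 7 and 5, and 0 and 3 in the 3 lists.

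Genes of other lineages had fewer desert sites. Of 85 developmental transcription factors 13 had 30 sites, with 17 higher and 12 lower: all 4 at Sox9, 4 of 6 at Sox6, 2 of 3 at Sox5, and single sites at Foxa2, Otx2, Nkx6-1 and Tfap2c. Of 82 neural adhesion and synapse genes 7 had 11 sites, with 8 higher and 3 lower, including both sites at Epha7 and both at Pcdh7, a protocadherin. One Pcdh7 site had 71.4 ± 17.0 in untreated KO and 12.7 ± 6.32 in untreated WT (SD, n = 3 each). B cell and myeloid genes had 11 sites at 4 of 26 genes, with 4 higher and 7 lower. The 4 lay at Bcl11a, a transcription factor of B cells and of the globin switch (one site with 108 ± 33.2 in untreated KO and 15.8 ± 6.46 in untreated WT), and Bank1, a B cell adaptor, while all 5 sites at Cebpb, a myeloid transcription factor, were lower. After loess the 3 lists had 18 higher and 1 lower, 8 and 0, and 4 and 1. Zeb2 stands in both transcription factor lists. The lists differ in signal level and size, and no test of one list against another was made.

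Desert sites inside 4 long non-coding genes were nearly all called lower on the deposited scale, as were 89.6% of all sites and 76.5% of desert sites. All 18 desert sites inside Morrbid, the lncRNA beside Bcl2l11 that in mouse controls Bim in short-lived myeloid cells, were lower in untreated KO, as were all 14 in Lncpint, 15 of 16 in Gm20098 and all 4 in Firre. After loess 0, 0, 1 and 0 of them were called lower and none higher. The strongest Morrbid site, at chr2:128401429-128401629, had 626 ± 77.6 in untreated KO and 896 ± 122 in untreated WT. Over all 954 sites inside non-coding genes 153 were higher and 784 lower, and over the 2253 outside any gene 560 and 1668.

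Antigen receptor loci split by receptor. Of the 30 members near receptor segments 9 were higher and 19 lower. Inside the T cell receptor loci all 8 sites of Tcrb and all 6 of Tcra were lower, as were 89.6% of all sites. None of these receptor sites was called lower after loess. Inside the immunoglobulin heavy chain locus Igh 8 of 13 were higher and 3 lower, with a median log2 difference of 0.82, and the 8 were higher after loess too. In the part between Tmem121 and Adam6b all 6 were higher. At chr12:113339341-113339541 signal was 85.6, 116 and 144 in untreated KO, against 31.2, 29.1 and 27.6 in untreated WT, without overlap (log2 difference 1.91 ± 0.28, limma adjusted p = 6.88e-09). The strongest Igh site, at chr12:113362515-113362715, had 614, 764 and 816 in untreated KO, against 452, 509 and 303 in untreated WT (0.82 ± 0.20, limma adjusted p = 0.000134). The B cell marker Pax5 had 4 sites, whose summed share of signal was 0.00320 to 0.00380% in untreated KO and 0.000600 to 0.000937% in untreated WT. With acetate it was 0.00116 to 0.00129% in KO and 0.000859 to 0.000865% in WT. Cd79a, Cd79b and Ms4a1 had no site, and the part of B cells in the Igh values was not tested.

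Given acetate, few desert sites were called between KO and WT cells: 2 members were called higher in KO and 0 lower (limma; 0.0227% and 0% of all sites), while 138 members had an unadjusted p under 0.05, as had 914 of all 39657 sites. edgeR and DESeq2 on the recovered reads also called 2. Of the 713 members higher in untreated KO, 433 (60.7%) were above 0 in KO minus WT with acetate, which shares no library with the untreated comparison, against 26.8% of all members. Their median there was 0.08 and that of all members -0.16. After loess 72.4% of the higher ones and 47.2% of all members were above 0.

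Both acetate calls lay 5 kb apart between Mbnl1, a splicing regulator, and P2ry1, an ADP receptor, on chromosome 3. At chr3:60795381-60795581 signal was 123 and 75.4 in KO with acetate, against 9.23 and 5.62 in WT with acetate. The log2 difference was 3.56 ± 0.52 (limma adjusted p = 6.5e-07), and 3.59 after loess (limma adjusted p = 0.00215). Untreated it was 28.5, 19.6 and 22.5 in KO, against 4.99, 6.03 and 4.42 in WT (1.99 ± 0.43, limma adjusted p = 3.21e-05). At chr3:60790238-60790438 signal was 81.0 and 57.3 in KO with acetate, against 6.15 and 11.9 in WT with acetate (2.85 ± 0.48, limma adjusted p = 8.56e-05). Every KO library exceeded every WT library at both sites, in both treatments. The WT values are small: with acetate they rest on 3 and 8 reads at the first site and 2 and 17 at the second. The count of calls depended on single libraries, with 8 members called without WT acetate 2, and 1 without KO acetate 1 or without WT acetate 1.

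The whole desert between Mbnl1 and P2ry1 shared this direction. Its strongest site is the start of Gm38326 printed above (chr3:60788123-60788323), with 1081 and 909.5 in KO with acetate, against 794 and 648 in WT with acetate. Untreated it had 818, 1000.4 and 1102 in KO, against 607, 608 and 589 in WT. The untreated difference was called (0.68 ± 0.18, limma adjusted p = 0.000399), and that with acetate was not (0.47 ± 0.22, limma adjusted p = 0.993). The fourth member, at chr3:60762949-60763149, had 89.5 and 86.0 in KO with acetate and 27.7 and 34.4 in WT with acetate, a log2 difference of 1.48 ± 0.36 that was not called (limma adjusted p = 0.188).

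**Figure D5:**
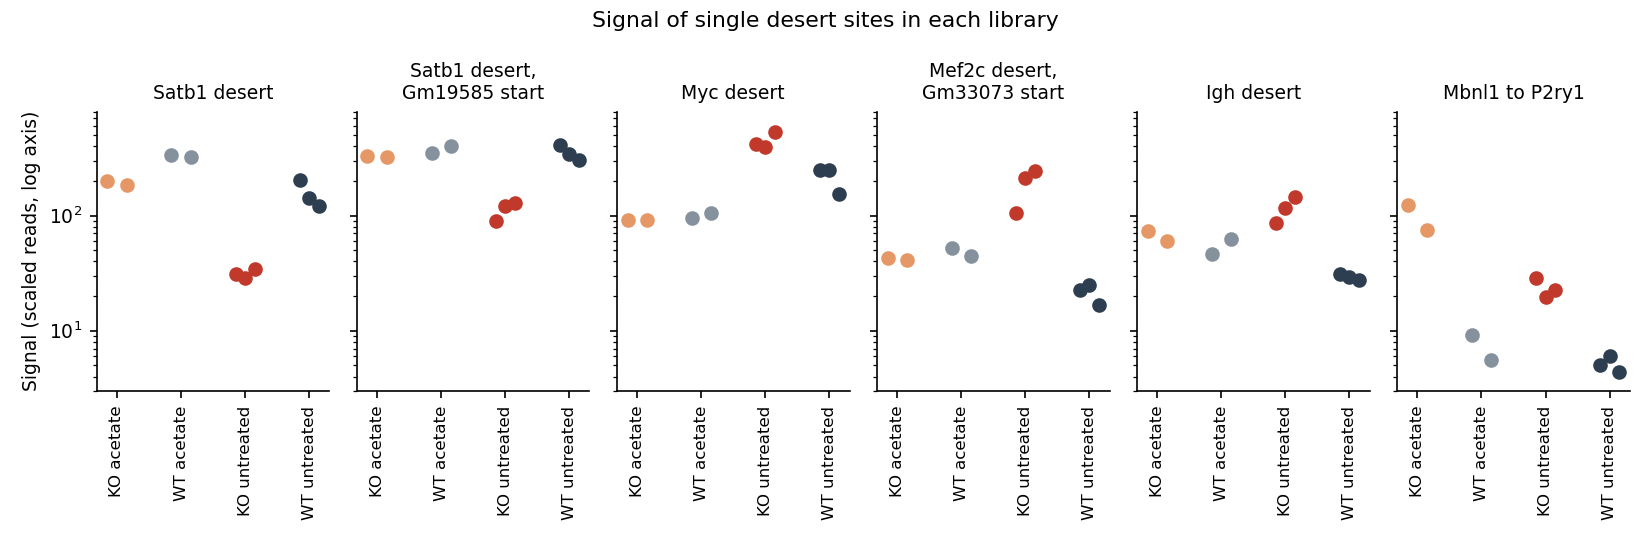
Signal (scaled reads, log axis) of 6 desert sites in each of the 10 libraries, 1 point per library. Untreated KO is the lowest group at both Satb1 sites (29.0 to 128) and the highest at the Myc, Mef2c and Igh sites, while at the Mbnl1 to P2ry1 site KO stands above WT in both treatments (75.4 and 123 against 5.62 and 9.23 with acetate).

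Many desert sites of KO cells were called for acetate, in directions that depended on the scaling. With acetate against untreated in KO, 1581 members were higher and 421 lower (limma; 54.6% and 5.94% of all sites). After loess 468 were higher and 910 lower, against 11.5% and 16.7% of all sites, so the balance of directions turned with the scaling. Without KO acetate 1, 1186 members were called in place of 2002. All 421 lower calls were also lower after loess, and 468 of the 1581 higher ones (29.6%) were also higher. Loess moved the median over all sites from 0.61 to -0.02, so a lower call could hardly be lost. Lower calls took 11.2% of members at 50 to 100 kb, 13.2% at 100 to 250 kb, 16.8% at 250 to 500 kb and 26.9% beyond 500 kb. This comparison shares the untreated KO libraries with the untreated genotype comparison, so an opposite sign in both is no separate evidence, and in KO acetate cannot be told apart from the column prefix.

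Of the falling sites described above, the Rbpj and Satb1 sites were higher with acetate in KO. The Rbpj site had 333 and 308 in KO with acetate, against 34.5, 49.5 and 42.6 in untreated KO (log2 difference 2.91 ± 0.25, limma adjusted p = 5.08e-20). WT with acetate had 425 and 332 there, against 162, 138 and 154 in untreated WT (1.31 ± 0.25, limma adjusted p = 0.00013). The Satb1 site inside Gm19585 had 199 and 183 in KO with acetate, against 31.3, 29.0 and 34.3 in untreated KO (2.56 ± 0.26, limma adjusted p = 1.35e-15), and 335 and 322 in WT with acetate, against 202, 141 and 121 in untreated WT (1.12 ± 0.26, limma adjusted p = 0.00221). At both sites acetate was higher than untreated in each genotype without overlap, on either scale. The start of Gm19585 had 331 and 319.8 in KO with acetate (1.54 ± 0.24 over untreated KO, limma adjusted p = 2.53e-08). In WT with acetate it had 351 and 404, within the range of untreated WT (0.11 ± 0.24, limma adjusted p = 0.888).

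Falls with acetate in KO included the sites of the Myc, Mef2c, Sox6 and Prok2 deserts. The Myc site had 91.2 and 92.0 in KO with acetate, against 418, 396 and 531 in untreated KO (log2 difference -2.27 ± 0.24, limma adjusted p = 2.31e-14). In WT with acetate it had 95.4 and 105, against 248, 247 and 154 in untreated WT (-1.07 ± 0.24, limma adjusted p = 0.00162), so acetate was lower in both genotypes. The start of Gm33073 had 42.6 and 40.7 in KO with acetate (-2.05 ± 0.32 against untreated KO, limma adjusted p = 3.68e-08) but 52.3 and 44.9 in WT with acetate, above untreated WT (1.16 ± 0.32, limma adjusted p = 0.0124). In the desert between Prok2 and Rybp 11 of 15 sites were lower with acetate in KO, the steepest with 13.6 and 15.1 against 98.7, 191 and 134 in untreated KO (-3.16 ± 0.36, limma adjusted p = 3.85e-13). A site 150 kb from Prdm1, which encodes the repressor Blimp-1, had 85.3 and 83.0 in KO with acetate, against 220.5, 315 and 362 in untreated KO (-1.79 ± 0.25, limma adjusted p = 1.87e-09). At Sox6 the values were 23.0 and 22.6, against 99.8, 140.1 and 190.4 in untreated KO. The 2 sites called between Mbnl1 and P2ry1 went the other way and were higher with acetate in KO, by 2.00 ± 0.48 and 1.25 ± 0.44 (limma adjusted p = 0.000223 and 0.0116). After loess the second of these was not called (limma adjusted p = 0.373).

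By list, acetate against untreated in KO was higher at 151 and lower at 33 of the 292 sites at T cell transcription factors, higher at 93 and lower at 2 of the 129 at T cell receptor signals, and higher at 13 and lower at 0 of the 33 at cytokines and receptors (limma, deposited scale). At developmental transcription factors 9 rose and 10 fell, at neural genes 0 and 3, and at B cell and myeloid genes 5 and 2. Of all sites 54.6% were higher and 5.94% lower on this scale, and of all desert sites 49.3% and 13.1%. In the same order these shares were 11.5% and 16.7%, and 14.6% and 28.4%, after loess. After loess the counts were 39 higher and 66 lower at T cell transcription factors, 26 and 19 at T cell receptor signals, 4 and 6 at cytokines and receptors, 1 and 15 at developmental transcription factors, 0 and 7 at neural genes, and 1 and 3 at B cell and myeloid genes. In Morrbid 10 of 18 sites were higher and 0 lower, in Pvt1 8 of 14 higher and 1 lower, and in Igh 0 higher and 5 of 13 lower.

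In WT cells fewer desert sites were called for acetate. There 208 members were higher and 134 lower (limma; 2.91% and 3.02% of all sites), and after loess 283 and 156 (4.43% and 4.07% of all sites). The count depended on single libraries: in place of 342 calls, a refit made 43 without WT acetate 1, 137 without WT acetate 2, 150 without untreated WT 1 and 520 without untreated WT 4. A site 77.5 kb from Trib1, a pseudokinase, had 375 and 282 in WT with acetate, against 131, 115 and 160.3 in untreated WT (log2 difference 1.27 ± 0.25, limma adjusted p = 0.000254). A site near Gpr12 had 132 and 169, against 45.0, 59.3 and 54.2 (1.49 ± 0.27, limma adjusted p = 7.84e-05). Both were higher in every acetate library than in any untreated WT library, but the largest rises and falls were named only without overlap. The steepest fall was inside Pvt1 (chr15:62229615-62229815), with 86.2 and 65.3 in WT with acetate, against 307, 221 and 180.2 in untreated WT (-1.61 ± 0.26, limma adjusted p = 4.12e-06). That site was also lower with acetate in KO (-0.997 ± 0.26, limma adjusted p = 0.000568).

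The genotype by acetate interaction asks whether the KO minus WT difference itself changed with acetate. It was called at 573 members with a positive and 282 with a negative value (limma; 19.5% and 3.61% of all sites). After loess 11 were positive and 560 negative (0.139% and 7.36% of all sites), so the prevailing direction turned with the scaling. A negative value means that KO minus WT was lower with acetate than untreated. At the start of Gm33073 it was -0.21 ± 0.35 with acetate and 3.00 ± 0.29 untreated. That site was picked after its untreated values were seen, so the smaller value with acetate is no separate evidence. The count and its direction depended on single libraries: in place of 855 calls as deposited, a refit made 93 without KO acetate 1, 207 without untreated KO 1, 221 without WT acetate 2, 255 without untreated WT 1, 294 without untreated KO 2, 382 without WT acetate 1, 432 without KO acetate 3 and 1419 without untreated WT 4. Negative values then prevailed on the deposited scale too without KO acetate 1 (14 positive and 79 negative), untreated KO 1 (79 and 128) and untreated WT 1 (111 and 144). In KO the column prefix moves with acetate, and its part was not tested.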

How the data were processed

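ATAC-seq signal in 10 libraries was read from 1 deposited table. The authors' signal values are reads per site divided by a factor of each library. Per the submitters' processing notes the build was GRCm38 and the tools included BWA 0.7.16a, Genrich, DiffBind 3.6.1, and also Picard 2.10.9, with no role given for each. In every library 100% of values were whole multiples of 1 step within 0.001 reads, so reads could be recovered. Columns of no sample numbered 0. WT 4 and KO acetate 3 carry numbers absent from the sample titles and were placed by group.

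Members were found with the RefSeq gene table of GRCm38.p6, which also gave non-coding genes and the start windows. All 10 libraries entered 1 limma model (version 3.58.1, trended and robust, under R 4.3.3) of the 4 group means, on the log2 of signal plus 1, since these values are normalized. P-values were Benjamini-Hochberg adjusted over 39657 sites and called under 0.05. Fold changes on this scale understate changes of low sites. Cyclic loess was the main other scaling. For shares of signal every relabelling of the libraries was enumerated (exact permutation, two-sided), within treatment or genotype where both entered. edgeR 4.0.16 and DESeq2 1.42.0 ran on recovered reads, with the authors' factors. The fit was tested on simulated data. Python 3.11.15 was used for the enumeration, with pandas 2.3.3 for tables and matplotlib 3.10.9 for figures.

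Sites were named by rule: the 10 largest rises and falls per comparison among called members at or above the members' median signal whose groups did not overlap, 1 per desert; the 10 deserts with most sites; the 10 strongest and 5 farthest members; and up to 4 called members per gene list by adjusted p. The deserts from Prok2 to Rybp, Cetn3 to Mef2c, Tmem121 to Adam6b and Mbnl1 to P2ry1, the non-coding starts and the receptor loci were added after their values were seen. Members, lists and tests were chosen with earlier results of these data known. Alternatives were other scalings, pseudocount 8, a filter on low sites, 100 kb or any gene type for the desert limit, other tests, and leaving out libraries. Some items are not reported here.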

Additional observations from a re-analysis of the deposited data

Results flagged for a closer look

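The genotype difference at desert sites changed with acetate at 855 of 3207 members as deposited and at 571 after cyclic loess (limma interaction term, adjusted p under 0.05), which is why it is listed here. As deposited 573 of these (17.9% of members) were positive and 282 (8.79%) negative, against 19.5% and 3.61% of all sites. After loess 11 (0.343% of members) were positive and 560 (17.5%) negative, against 0.139% and 7.36% of all sites. At the start of Gm33073 the log2 difference of KO minus WT was -0.21 ± 0.35 with acetate and 3.00 ± 0.29 untreated. At the Myc site 632 kb out it was -0.12 ± 0.27 with acetate and 1.07 ± 0.22 untreated. Both sites were chosen with results of these data known, so a smaller difference with acetate is no separate evidence. Without KO acetate 1, 93 members were called as deposited in place of 855. In KO all acetate libraries carry the ATAC2 prefix and all untreated ones ATAC1, so acetate and prefix cannot be told apart there.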

How the results depend on the processing

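For untreated KO against WT, 3165 members were called as deposited (713 higher, 2452 lower). Median-of-ratios factors gave 884 (733 and 151), equal totals 932 (727 and 205) and loess 842 (727 and 115), so the prevailing direction reversed. For acetate in KO (2002 called) the counts were 1360, 1346 and 1378, and for the interaction (855) 522, 471 and 571, reversed as well. The cause was not tested. Fewer sites entered under the low-signal filter, the 100 kb limit and the limit for genes of any type: 1988, 1693 and 566 were called untreated, 1269, 1029 and 340 for acetate in KO, 186, 196 and 63 for acetate in WT, and 472, 455 and 159 for the interaction. KO against WT with acetate (2 called) gave 0 with the filter and with any gene type, and 4 without trend and robust fitting and in ATAC2 libraries alone. edgeR called 3171 members untreated, 2061 for acetate in KO, 334 for acetate in WT and 1089 for the interaction; DESeq2 called 3142, 1964, 244 and 788. Chosen after seeing the data, leaving out receptor sites gave 3137 calls untreated and adding the 6 contig sites 3171.

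With a replicate block on the 4 titled libraries, 2991 members were called untreated (3108 without it) and 1016 for acetate in WT (530 without it). The libraries share only a number: same-numbered deviations correlated at 0.187 untreated and 0.319 for acetate in WT, over 2 pairs each. The other comparisons got no block, since fewer than 2 numbers shared by their columns are also given by the sample titles.

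Leaving out 1 library gave 2810 to 3151 calls untreated, 1 to 8 for KO against WT with acetate, 1186 to 2008 for acetate in KO, 43 to 520 for acetate in WT and 93 to 1419 for the interaction, whose prevailing direction reversed in the refits with 93, 207 and 255 calls. The desert share differed by 0.138 to 0.711 points for untreated KO minus WT, -0.416 to 0.265 with acetate, -0.387 to -0.159 for acetate in KO, -0.0895 to 0.591 for acetate in WT, -0.181 to 0.159 for acetate over both genotypes and 0.0164 to 0.357 for genotype over both treatments. With mitochondrial sites in the denominator acetate over both genotypes reversed to 0.0332 points. Share p-values over all alternatives lay between 0.0667 and 1. Depth limits the weakest sites: WT acetate 1 had a median of 57 reads per site.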

Other observations

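The Mbnl1 to P2ry1 sites lie within a longer run on chromosome 3 that was higher in KO. From chr3:60362817 to 61037280, a stretch of 674 kb picked after its values were seen, 19 consecutive sites were all called higher in untreated KO (limma, log2 differences 0.68 to 2.34, median 0.99). Of the 19, 8 were desert sites and 11 lay nearer to genes. With acetate KO minus WT was above 0 at all 19 (0.06 to 3.56, median 0.60), though 2 were called. Among all sites, 9 were called for KO against WT with acetate, these 2 on chromosome 3 and 7 on chromosome 6 at Cd4 and Lag3. Cd4 is the gene whose regulatory sequence drives the Cre transgene, which all KO libraries carry, and transgene and deletion cannot be told apart there.

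The rises at the Mef2c and Igh deserts were not seen with acetate. Both deserts were picked after their untreated values were seen, so a smaller difference with acetate is no separate evidence of a change. In the 5 sites between Cetn3 and Mef2c KO minus WT had a median of -0.21 with acetate and 1.56 untreated. In the 6 sites between Tmem121 and Adam6b it was -0.14 with acetate and 1.55 untreated. No site of either desert was called between KO and WT with acetate (limma), but only 9 of all 39657 sites were.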
